A study of Mus musculus with 12 samples.

Results

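Thrsp and 9 genes of the fatty acid synthesis program were followed across 12 mouse breast tumours. The members are Thrsp, Fasn, Acaca, Acly, Scd1, Scd2, Elovl6, Srebf1, Mlxipl and Me1, 10 of the 55487 genes in the count table, found by their gene symbols. Thrsp was chosen by its measured difference between the genotypes in these same tumours, and the rest were put beside it as lipogenic enzymes and regulators with the same results known, so their differences between genotypes are given as descriptions. All 10 had enough reads to be tested, with between 125 counts (Mlxipl) and 162899 counts (Scd1) in a single tumour.

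All tumours came from C57BL/6J mice of the MMTV-PyMT model, where a mammary tumour virus promoter expresses polyoma middle T, a viral oncogene, in the mammary epithelium. In 6 mice both the oncogene and Bad3SA were present, Bad3SA being a form of the pro-apoptotic protein BAD whose regulatory serines cannot take up phosphate. The other 6 mice carried the oncogene with wild-type Bad (Bad_WT). Each tumour was a separate mouse, taken at an end-point age of 27.5 ± 2.85 weeks in Bad3SA and 24.0 ± 1.93 weeks in Bad_WT (SD, n = 6 each). The change in Bad is carried by the germ line, so tumour cells and the other cells of the tissue share it.

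Fatty acid synthesis turns citrate into palmitate in the cytosol. ATP citrate lyase (Acly) makes acetyl-CoA, acetyl-CoA carboxylase (Acaca) makes malonyl-CoA, fatty acid synthase (Fasn) builds the chain with NADPH that malic enzyme (Me1) helps to supply, and Elovl6 and the stearoyl-CoA desaturases (Scd1, Scd2) lengthen and desaturate the product. Srebf1 and Mlxipl encode the transcription factors SREBP1 and ChREBP, which drive these enzymes in liver and fat. Thrsp encodes a small protein without a known enzymatic activity that is induced by thyroid hormone, carbohydrate and lactation, and mice lacking it make less fatty acid in the lactating mammary gland.

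Thrsp (ENSMUSG00000035686) lies on the minus strand of GRCm38 chromosome 7, from 97412938 to 97417730, and no other gene model of GENCODE release M21 overlaps it. Fasn (ENSMUSG00000025153) lies on the minus strand of chromosome 11, from 120805846 to 120824547. RefSeq promoter windows on GRCm38.p6 were available for 8 of the 10 members, and those of Thrsp (chr7:97417551-97417800) and Fasn (chr11:120824548-120824797) are shown because they are the gene that differed and the enzyme that makes palmitate. Each holds the 250 bases before the RefSeq start, 5′ to 3′ on the minus strand, with matches to CCAAT on either strand in capitals.
Thrsp promoter: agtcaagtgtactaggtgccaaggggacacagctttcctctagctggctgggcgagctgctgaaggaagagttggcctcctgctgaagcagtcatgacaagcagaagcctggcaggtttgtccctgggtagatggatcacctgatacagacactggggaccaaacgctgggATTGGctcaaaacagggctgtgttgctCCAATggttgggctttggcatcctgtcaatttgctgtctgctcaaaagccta
Fasn promoter: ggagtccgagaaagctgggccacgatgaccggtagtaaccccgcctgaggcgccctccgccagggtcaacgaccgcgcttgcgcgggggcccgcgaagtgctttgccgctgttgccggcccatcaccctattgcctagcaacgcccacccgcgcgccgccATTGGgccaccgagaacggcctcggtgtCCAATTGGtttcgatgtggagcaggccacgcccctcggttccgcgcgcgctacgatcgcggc
CCAAT occurred in the Thrsp window at -52 on the gene's strand and at -79 on the other strand, counted from the start. The Fasn window held it at -62 on the gene's strand and at -90 and -59 on the other, the last of these overlapping the first. CCAAT on either strand is found in 33.8% of 32851 mouse windows of this length, so both genes share a common element. Neither window held TCACNCCAC, the sterol response letters found in 1.05% of windows, CACGTG (6.02%) or GGGCGG (32.7%), each searched on both strands. The GENCODE model of Thrsp begins upstream of the RefSeq start, inside the printed window.

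Polyadenylated RNA was read at 58096172 to 82517445 counts per tumour in Bad3SA and 64935510 to 83296370 in Bad_WT. The epithelial markers Krt8 (1346 and 1249 CPM, counts scaled to library size with TMM, on average in Bad3SA and Bad_WT) and Epcam (1135 and 1184 CPM) were abundant in both genotypes, as the tissue label says. On the second principal component, which held 19.9% of the variance, Bad3SA 4, 5 and 6 lay at -52.8, -65.8 and -66.5, apart from the other 9 tumours at 1.55 to 43.2. Results that rest on them are therefore given with and without them, an alternative chosen after seeing the data. Labels do not name a batch that sets these 3 tumours apart.

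Thrsp was more abundant in every Bad3SA tumour than in any Bad_WT tumour. It ran from 207 CPM through a median of 361 to 453 CPM in Bad3SA, against 68.7 CPM through a median of 106 to 154 CPM in Bad_WT. The lowest Bad3SA tumours were 3 and 2, at 207 and 218 CPM, and the highest Bad_WT tumour was number 1, at 154 CPM. Means were 328 ± 95.8 CPM in Bad3SA and 106 ± 36.6 CPM in Bad_WT (SD, n = 6 each), a 3.10-fold difference (log2 1.63, SE 0.25). Of the 18019 genes tested, 1.38% passed at an edgeR adjusted p under 0.05 and 0.622% passed as higher in Bad3SA, and Thrsp was the 1 member among them (adjusted p = 0.00496), which is the value that led to its listing. Non-overlapping ranges with Bad3SA higher were found for 0.96% of all genes tested and for Thrsp alone among the members, and with Bad3SA lower for 1.27% of all genes and no member. In whole-tumour RNA, more cells that express a gene and more RNA per cell cannot be told apart.

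With Bad3SA 4, 5 and 6 left out, the Thrsp log2 fold change was 1.32 (SE 0.30, edgeR adjusted p = 0.0900), and the ranges still did not overlap. After end-point age was added to the model it was 1.56 (SE 0.30, edgeR adjusted p = 0.0538). Thrsp itself had a slope on age of 0.02 log2 units per week (edgeR adjusted p = 0.907), and none of the 10 members had an age slope that passed, nor had any of the 18019 genes tested, of which 1520 (8.44%) had an unadjusted p under 0.05. In the authors' deposited table, which gives Bad_WT over Bad3SA, Thrsp had a log2 fold change of -1.47 (adjusted p = 6.51e-07), and it was the only member to pass there, in a table where 4.02% of genes passed. It was also the only member called by the DESeq2 Wald test run here (4.21% of genes) and by limma voom (3.21%). The model with age called 0.405% of genes.

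**Figure D1:**
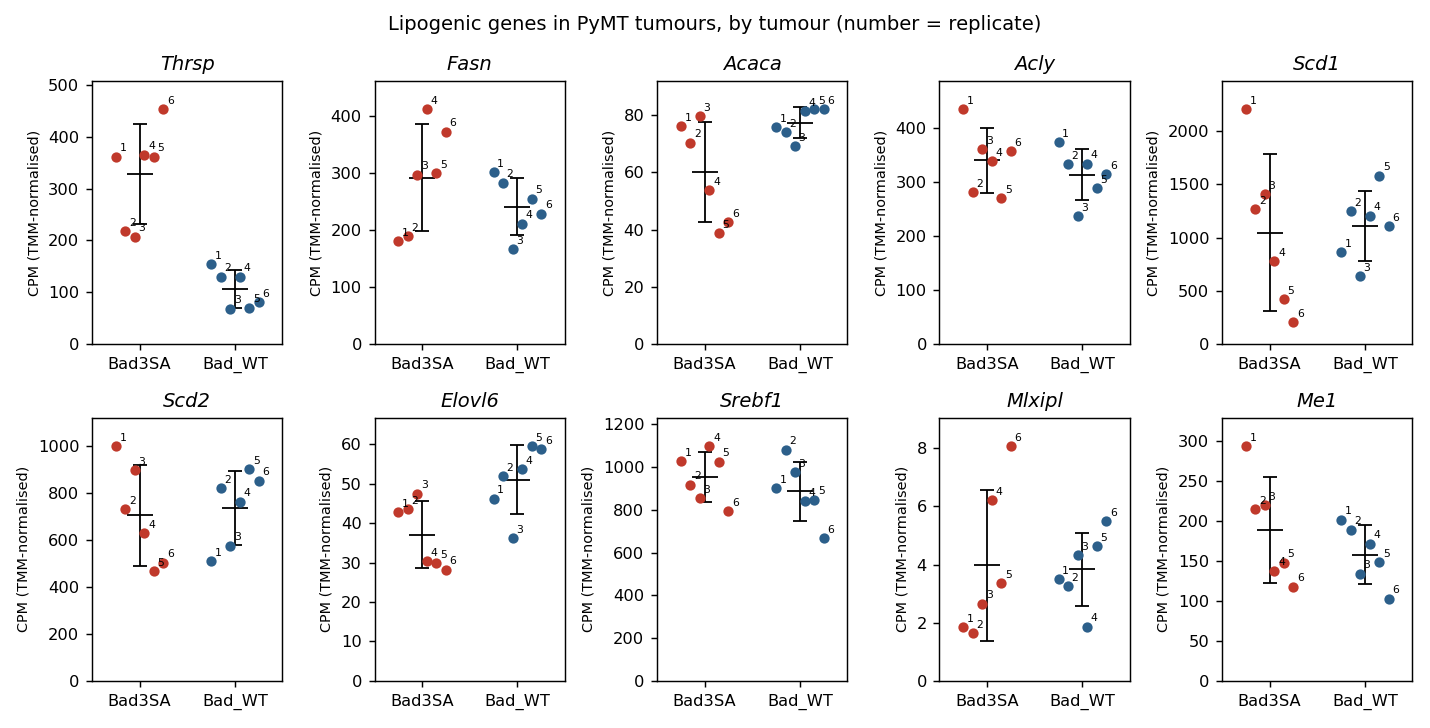
TMM-normalised CPM of the 10 members in each tumour, Bad3SA on the left and Bad_WT on the right of each panel. Small numbers give the replicate, and bars the mean ± SD of 6 tumours. Thrsp is the panel without overlap, with 207 to 453 CPM in Bad3SA and 68.7 to 154 CPM in Bad_WT.

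Within single tumours, the ratio of Thrsp counts to those of each other member was compared as well. The ranges did not overlap for 6 of the 9 ratios, those to Fasn, Acly, Acaca, Elovl6, Me1 and Srebf1, and overlapped for the ratios to Scd1, Scd2 and Mlxipl. The ratio of Thrsp to Fasn counts ran from 0.699 through a median of 1.18 to 2.01 in Bad3SA, against 0.277 through 0.437 to 0.615 in Bad_WT. The ratio to Acaca had a median of 5.78 in Bad3SA and 1.30 in Bad_WT, and the ratio to Srebf1 a median of 0.342 in Bad3SA and 0.121 in Bad_WT. The ratio to Scd1 ran from 0.147 through a median of 0.322 to 2.18 in Bad3SA, against 0.0447 through 0.106 to 0.178 in Bad_WT. These ratios restate the Thrsp difference, by which Thrsp was chosen, against genes whose own levels overlapped. Ratios to unrelated genes were not computed, so the 6 ratios show nothing particular to these members.

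Mid1ip1, the paralogue of Thrsp whose protein binds acetyl-CoA carboxylase and promotes its assembly into filaments, did not follow it. It stood at 13.3 ± 2.58 CPM in Bad3SA and 14.2 ± 4.00 CPM in Bad_WT (log2 -0.10, SE 0.20, edgeR adjusted p = 0.831). The ratio of Thrsp to Mid1ip1 counts had a median of 25.4 in Bad3SA, with a lowest value of 14.3, and a median of 6.91 in Bad_WT, with a highest value of 11.5. An antisense model, Gm14493, covers 25.5% of the exon bases of Mid1ip1 and was listed at 0 counts in all tumours.

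The enzymes that lead to palmitate did not pass. Fasn ranged from 180.0 through a median of 298 to 411 CPM in Bad3SA, against 166 through 242 to 301 CPM in Bad_WT, and the ranges overlapped. Its log2 fold change was 0.28 (SE 0.21, edgeR adjusted p = 0.521). The low Bad3SA tumours were 1 and 2, at 180.0 and 189 CPM, of which the first had 361 CPM of Thrsp. Without Bad3SA 4, 5 and 6 the Fasn estimate was -0.11 (SE 0.21).

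Acly (ENSMUSG00000020917, chromosome 11, 100476353 to 100528000), which supplies the acetyl-CoA, stood at 341 ± 60.0 CPM in Bad3SA and 314 ± 46.9 CPM in Bad_WT (log2 0.12, SE 0.14). Me1 (ENSMUSG00000032418, chromosome 9, 86581371 to 86695953), the malic enzyme, stood at 189 ± 66.3 CPM in Bad3SA and 158 ± 36.7 CPM in Bad_WT (log2 0.26, SE 0.23). For both genes the ranges overlapped.

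Acaca (ENSMUSG00000020532, chromosome 11, 84129672 to 84401651), the rate-setting carboxylase of the pathway, was at 38.8 CPM at its lowest, 62.0 at the median and 79.4 at its highest in Bad3SA, against 69.1, 78.5 and 82.0 CPM in Bad_WT. Bad3SA 4, 5 and 6, at 53.7, 38.8 and 42.6 CPM, lay below every Bad_WT tumour, and Bad3SA 1, 2 and 3, at 76.1, 70.3 and 79.4 CPM, lay inside the Bad_WT range. The coefficient of variation was 29.1% in Bad3SA and 6.85% in Bad_WT. The log2 fold change was -0.36 (SE 0.17, edgeR adjusted p = 0.318), and -0.03 (SE 0.08) without those 3 tumours.

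The genes that modify palmitate showed the same split within Bad3SA. Elovl6 (ENSMUSG00000041220, chromosome 3, 129532355 to 129638495), which elongates palmitate, ran from 28.2 through a median of 36.6 to 47.5 CPM in Bad3SA, against 36.3 through 52.8 to 59.6 CPM in Bad_WT. All 6 Bad3SA tumours lay below the Bad_WT median, while Bad_WT 3 and 1, at 36.3 and 46.2 CPM, lay among them. The log2 fold change was -0.46 (SE 0.16, edgeR adjusted p = 0.198), and -0.18 (SE 0.15) without Bad3SA 4, 5 and 6.

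Scd1 (ENSMUSG00000037071, chromosome 19, 44394455 to 44407879), a delta-9 desaturase that makes oleate, was the member that varied most. It ran from 208 CPM in Bad3SA 6 to 2205 CPM in Bad3SA 1, a 10.6-fold span, against 637 to 1580.0 CPM in Bad_WT, a 2.48-fold span. Medians were 1020.3 CPM in Bad3SA and 1158 CPM in Bad_WT, and the log2 fold change was -0.08 (SE 0.44, edgeR adjusted p = 0.940). Its neighbour Scd2 (ENSMUSG00000025203, chromosome 19, 44293674 to 44306864), a desaturase of the same family, ran from 465 to 999 CPM in Bad3SA and from 509 to 899.6 CPM in Bad_WT (log2 -0.06, SE 0.21). Without Bad3SA 4, 5 and 6 the estimates were positive, 0.57 (SE 0.27, adjusted p = 0.422) for Scd1 and 0.26 (SE 0.19) for Scd2.

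The transcription factors of the program did not pass. Srebf1 (ENSMUSG00000020538, chromosome 11, 60199089 to 60222581) was at 794 to 1099 CPM in Bad3SA and 668 to 1082 CPM in Bad_WT (log2 0.10, SE 0.13, edgeR adjusted p = 0.692). Its isoforms were counted together, and Rai1 on the other strand shares 1.93% of its exon bases. Mlxipl (ENSMUSG00000005373, chromosome 5, 135089890 to 135138382) was low, at 3.97 ± 2.61 CPM in Bad3SA and 3.84 ± 1.26 CPM in Bad_WT (log2 0.05, SE 0.40), with its highest values in Bad3SA 6 and 4, at 8.08 and 6.22 CPM. Over the 10 members, there were 6 positive and 4 negative log2 fold changes, their median being 0.08 beside 0.00 for all genes tested. An unadjusted edgeR p under 0.05 was found for 2 members (20.0%), Thrsp and Elovl6, close to the 16.2% of all genes tested. A p that misses the threshold does not show that a member was equal in both genotypes.

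**Figure D2:**
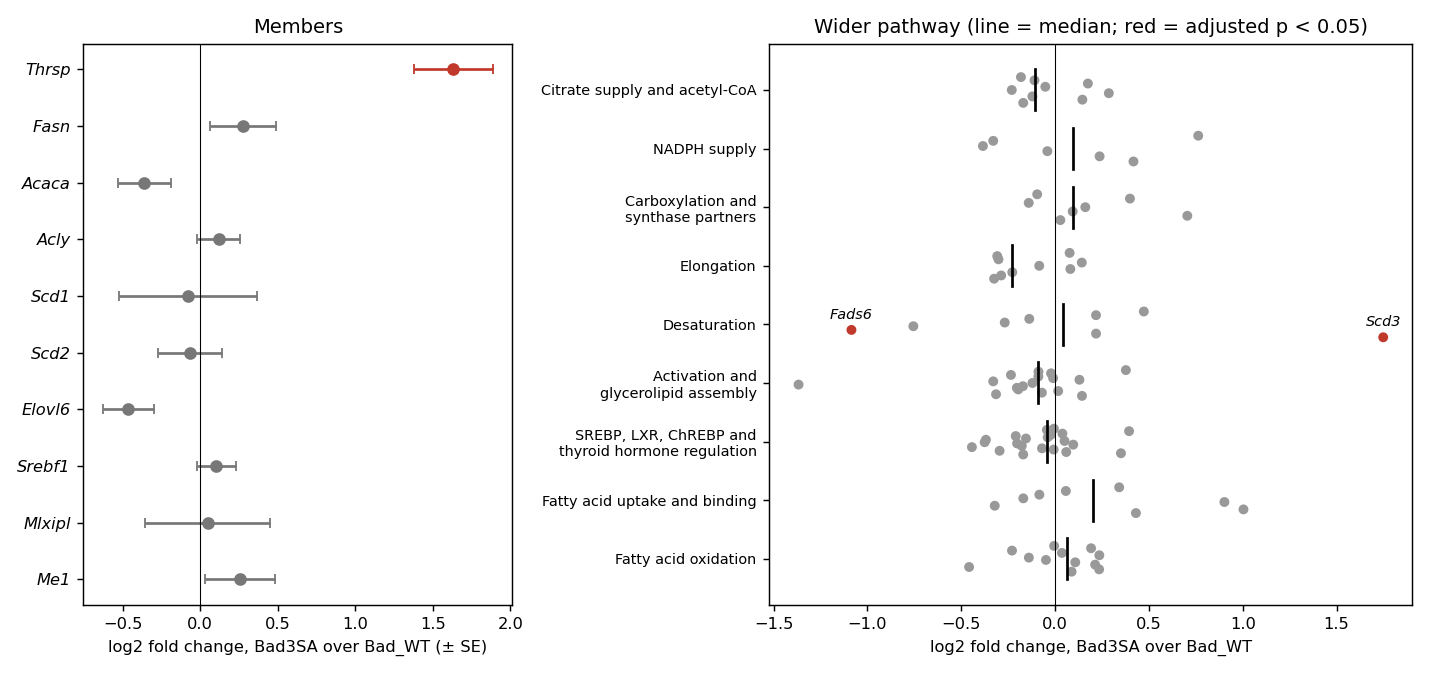
Log2 fold changes, Bad3SA over Bad_WT, from the edgeR fit. On the left are the 10 members with their SE, and on the right the tested genes of 9 wider lists, with a black bar at each median. Red marks an adjusted p under 0.05, reached by Thrsp (1.63), Scd3 (1.75) and Fads6 (-1.09).

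Divided by exon length, the members spanned from 209 CPM per kb (Scd1) to 0.543 CPM per kb (Mlxipl) as medians in Bad3SA, and from 237 to 0.705 CPM per kb in Bad_WT. Thrsp reached a median of 165 CPM per kb in Bad3SA, with a range of 94.7 to 207, and 48.2 CPM per kb in Bad_WT, with a range of 31.4 to 70.3. In Bad3SA it thus stood in position 3 of 11 genes, counting Mid1ip1, below Scd1 and Srebf1, whose ranges overlapped its own. In Bad_WT it stood in position 5, below Acly at 61.5 CPM per kb and above Me1 at 41.6, and its range overlapped theirs. Among 21817 protein-coding genes, the Thrsp level per length was at percentile 98.8 in Bad3SA and 95.4 in Bad_WT. Fasn (27.2 and 22.1 CPM per kb in Bad3SA and Bad_WT), Elovl6 (5.69 and 8.21) and Acaca (3.63 and 4.60) had ranges below that of Thrsp in both genotypes.

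**Figure D3:**
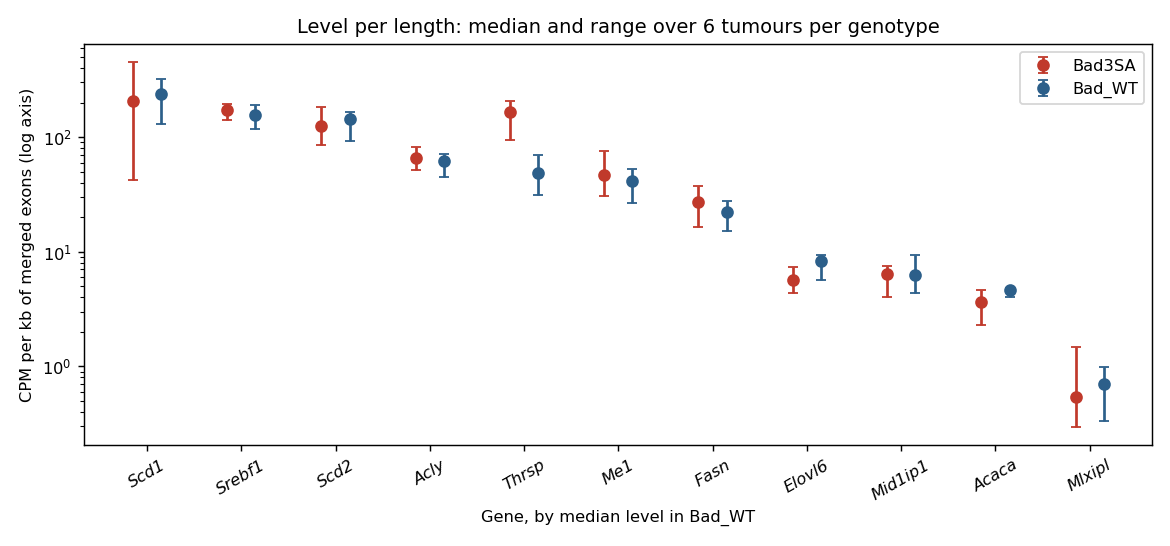
Level per length, in CPM per kb of merged exons on a log axis, of the 10 members and Mid1ip1, ordered by their median in Bad_WT. Points are medians and bars the range of 6 tumours, Bad3SA left of Bad_WT. Thrsp has a median of 165 in Bad3SA and 48.2 in Bad_WT, and it is the one gene whose bars do not overlap.

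How the members varied together among tumours of one genotype was examined in all 45 pairs, as Pearson correlations of log2 CPM deviations from the genotype mean. A permutation test that shuffled tumours within genotype (two-sided, 100000 permutations) was adjusted over the 45 pairs. A total of 7 pairs passed, and 25 of the 45 coefficients were positive, with a median of 0.13. Pairs of genes outside the members were not tested, so these counts show nothing particular to the program. Acaca, Scd1, Scd2 and Elovl6 formed all 6 of the positive pairs that passed, with r from 0.84 to 0.89 and adjusted p from 0.00870 to 0.0208. Spearman rho ran from 0.80 to 0.94 for these pairs, and r without the 2 tumours farthest from the median from 0.74 to 0.91. Within Bad3SA r ran from 0.87 to 0.97, and within Bad_WT from 0.65 to 0.92.

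The carboxylase and the genes of elongation and desaturation were thus low together in Bad3SA 4, 5 and 6, and among the Bad_WT tumours number 3 was the lowest for Acaca, Scd1 and Elovl6. In the 9 tumours without Bad3SA 4, 5 and 6, the same 6 pairs had r from 0.67 to 0.85 and exact permutation p from 0.00671 to 0.0752, and none of the 45 pairs passed (adjusted p 0.132 to 0.372 for these 6). Leaving them out moved r little for Acaca with Elovl6 (0.85) and Scd1 with Scd2 (0.84). The coefficients moved more for Acaca with Scd1 (0.68) and Scd2 (0.67), and for Elovl6 with Scd1 (0.74) and Scd2 (0.73). The exact test used all 4320 permutations of these 9 tumours within genotype. Scd1 and Scd2 are similar in sequence (86.8% over 1261 aligned bases), so reads could be divided between them. Acaca and Elovl6 are unrelated genes on chromosomes 11 and 3, and their own correlation was 0.84.

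The remaining pair was Mlxipl with Me1, which varied in opposite directions (r = -0.82, permutation adjusted p = 0.0288, n = 12). Spearman rho was -0.77, which did not pass after adjustment (permutation adjusted p = 0.0697), and r was -0.79 without the 2 farthest tumours. Leaving out Bad3SA 4, 5 and 6 brought r to -0.58, which did not pass (exact permutation adjusted p = 0.510). Among the alternatives, the pair passed under 8 and missed the threshold under 8. Me1 was highest in Bad3SA 1, at 294 CPM, where Mlxipl was at 1.85 CPM. Me1 was lowest in Bad_WT 6, at 103 CPM, where Mlxipl was at 5.49 CPM.

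Thrsp was in none of the pairs that passed. Its highest coefficients were with Acly (r = 0.55, rho = 0.58, permutation adjusted p = 0.306) and Fasn (r = 0.48, rho = 0.56, permutation adjusted p = 0.367), and its lowest was with Acaca (r = -0.45, permutation adjusted p = 0.401). In the 9 tumours without Bad3SA 4, 5 and 6, the coefficients of Thrsp were 0.82 with Acly, 0.23 with Fasn and 0.83 with Me1, and none passed (exact permutation adjusted p = 0.132, 0.905 and 0.195). With the 4 correlated genes its 12-tumour coefficients ran from -0.45 to -0.37. The coefficient of Thrsp and Elovl6 was -0.40 over 12 tumours and depended on the tumours kept. It was -0.79 without Bad_WT 3 (permutation adjusted p = 0.00225) and -0.46 to -0.26 with each other tumour left out. Without Bad3SA 4, 5 and 6 it was -0.00730 (exact permutation adjusted p = 0.986). Within genotypes it was -0.82 in Bad3SA and 0.06 in Bad_WT. The coefficients of Thrsp with Me1 were -0.55 in Bad3SA and 0.79 in Bad_WT, and with Mlxipl 0.68 and -0.68. Coefficients within a single genotype were not tested. Bad3SA 6 had the most Thrsp of all tumours, at 453 CPM, and the least Scd1, at 208 CPM.

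**Figure D4:**
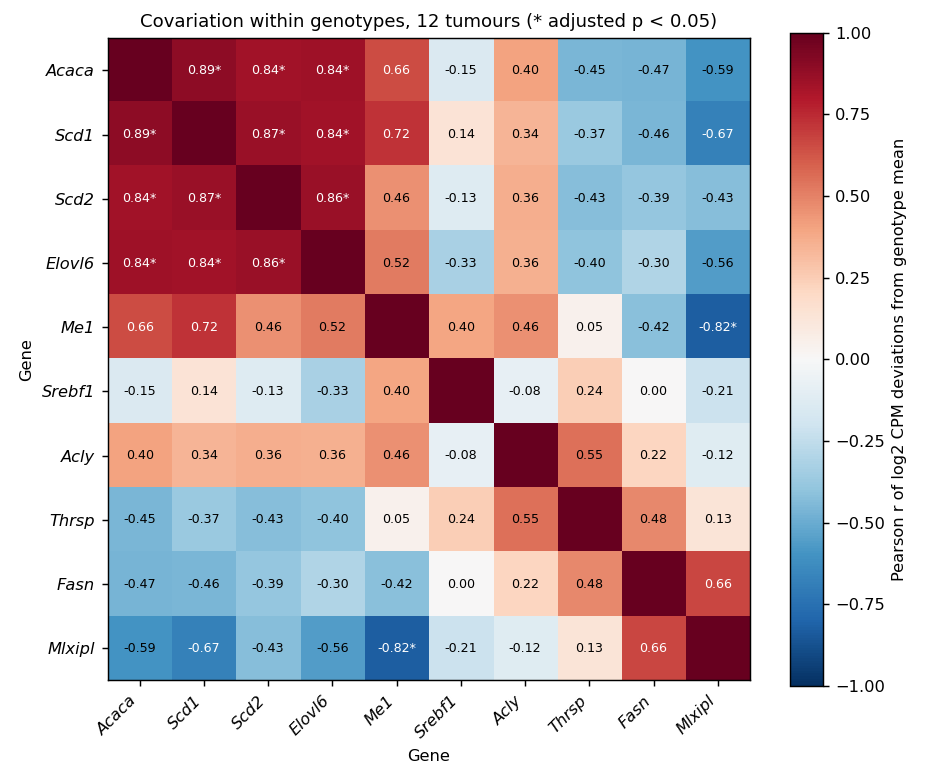
Pearson r of log2 CPM deviations from the genotype mean for each pair of members over 12 tumours, with an asterisk at a permutation adjusted p under 0.05. Acaca, Scd1, Scd2 and Elovl6 form the red block (0.84 to 0.89), and Thrsp has no marked pair.

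**Figure D5:**
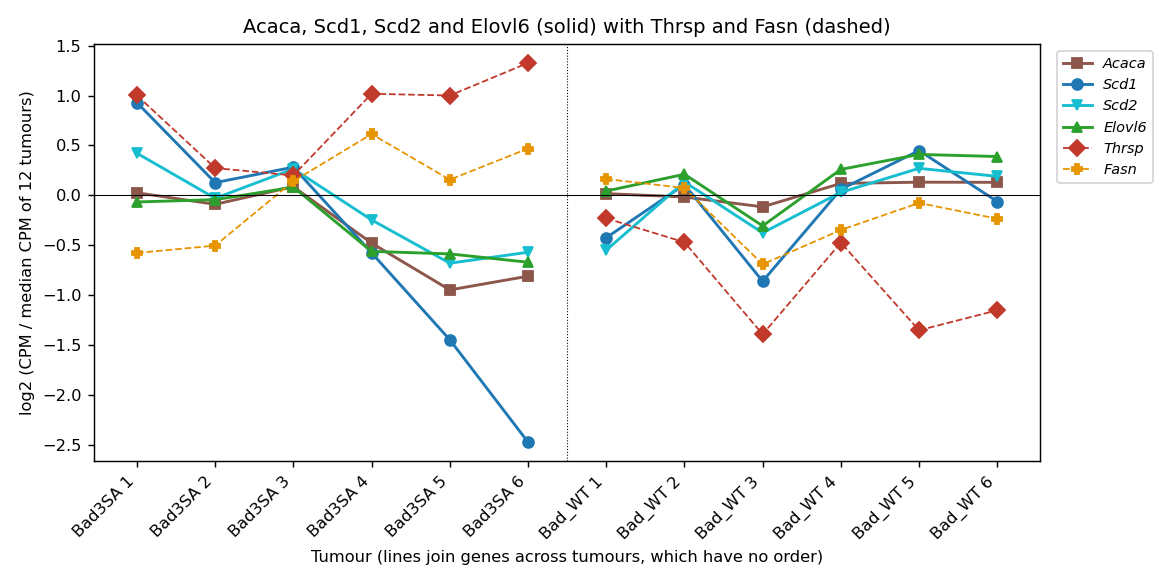
Log2 of CPM over the median of 12 tumours for Acaca, Scd1, Scd2 and Elovl6 (solid) and Thrsp and Fasn (dashed), with Bad3SA tumours on the left and Bad_WT tumours on the right. The 4 solid genes are low in Bad3SA 4, 5 and 6, where Thrsp is at 361 to 453 CPM. Lines join the values of a gene and give no order to the tumours.

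Among 12069 protein-coding genes ranked by the same measure over 12 tumours, those whose pattern was most like that of Thrsp were Lrrc1 (r = 0.93), Flad1 (0.91), Ttc25 (0.89), H4c8 (0.88) and Elovl1 (0.86). Flad1 encodes the enzyme that makes FAD, and Elovl1 an elongase of very long saturated chains. Ttc25 passed between genotypes, at 3.66 CPM in Bad3SA and 1.56 CPM in Bad_WT on average (log2 1.23, SE 0.25, edgeR adjusted p = 0.0309), whereas Lrrc1 (-0.18) and Elovl1 (-0.08) did not. The nearest members of the program were Acly at rank 441 and Fasn at rank 722, and Acaca stood at rank 10592. The 12 tumours are few for a ranking of so many genes, and no p is given for it.

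Around the 10 members, 101 further genes of lipid metabolism in 9 lists, taken whole and not by how they moved, were examined, of which 98 could be tested. Scd3 passed as higher and Fads6 as lower in Bad3SA, 1.02% of the tested genes in each direction beside 0.622% higher and 0.76% lower among all genes. Among these 98 genes, positive log2 fold changes numbered 40 and negative ones 58, their median was -0.04, and 19.4% had an unadjusted p under 0.05, beside 16.2% of all genes.

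Scd3 (ENSMUSG00000025202, chromosome 19, 44203269 to 44244016, plus strand), a desaturase of the skin in mice, ran from 6.77 through a median of 7.03 to 12.4 CPM in Bad3SA, against 1.26 through 2.58 to 3.20 CPM in Bad_WT. The ranges did not overlap, and the log2 fold change was 1.75 (SE 0.24, edgeR adjusted p = 0.00202). It was 1.95 (SE 0.29, adjusted p = 0.0155) without Bad3SA 4, 5 and 6 and 1.79 (SE 0.28, adjusted p = 0.00943) after age was added to the model. Its transcript is 90.4% identical to that of Scd1 over 1084 aligned bases and 88.6% to that of Scd2 over 1085, so its counts are uncertain. Bad3SA 1 was highest for both Scd3 and Scd1, at 12.4 and 2205 CPM, while Bad3SA 6, with the least Scd1 of all tumours at 208 CPM, had 6.97 CPM of Scd3. Whether shared reads play a part in the Scd3 counts was not tested. In the authors' deposited table Scd3 had a log2 fold change of -1.61 for Bad_WT over Bad3SA (adjusted p = 1.08e-10).

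Scd3 is also 1 of 9 sebaceous gland markers examined, of which 4 were tested, 3 were positive and Scd3 alone passed. Mc5r, Awat1, Fa2h, Elovl3 and Dgat2l6 were too low to test, at no more than 0.111 CPM on average in Bad3SA and 0.112 CPM in Bad_WT. Awat2 stood at 1.58 CPM in Bad3SA and 0.994 CPM in Bad_WT (log2 0.67, edgeR adjusted p = 0.241). Far2 averaged 1.09 CPM in Bad3SA and 0.624 CPM in Bad_WT (log2 0.81, edgeR adjusted p = 0.371). Summed, the 9 markers gave 40.8 to 211 CPM in Bad3SA and 15.6 to 272 CPM in Bad_WT. Most of this was the keratin gene Krt79, the negative marker, at 86.1 and 97.4 CPM on average in Bad3SA and Bad_WT. The mean log2 CPM of the 4 tested markers ran from 2.17 to 2.80 in Bad3SA and from 1.06 to 2.00 in Bad_WT. These ranges did not overlap, in a mean where Scd3, itself without overlap, weighs as much as Krt79.

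Fads6 (ENSMUSG00000044788, chromosome 11, 115279622 to 115297663), of the fatty acid desaturase family, stood at 15.7 ± 2.65 CPM in Bad3SA and 33.3 ± 11.9 CPM in Bad_WT (log2 -1.09, SE 0.22, edgeR adjusted p = 0.0255). The ranges met, with 19.6 CPM in the highest Bad3SA tumour and 18.6 CPM in the lowest Bad_WT tumour. Fads6 did not pass without Bad3SA 4, 5 and 6 (adjusted p = 0.105) or with age in the model (adjusted p = 0.329).

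The other 6 desaturation genes did not pass, and their list of 8 had 4 positive and 4 negative values. Citrate supply had 3 positive and 6 negative of 9 tested (median -0.11), among them Cs (-0.12), citrate synthase. NADPH supply had 3 positive and 3 negative of 6 (median 0.10), among them Me3, a mitochondrial malic enzyme (log2 0.76, SE 0.26), and Idh1, a cytosolic isocitrate dehydrogenase (-0.38, SE 0.10, edgeR adjusted p = 0.102). Idh1 stood at 67.9 ± 7.82 CPM in Bad3SA and 88.6 ± 9.97 CPM in Bad_WT. Synthase and carboxylase partners had 5 positive and 2 negative of 7 (median 0.09), among them Mecr (0.40), of mitochondrial fatty acid synthesis, and Olah (0.70), the thioesterase that releases medium chains in lactating mammary epithelium. Olah was low, at 0.531 CPM in Bad3SA and 0.325 CPM in Bad_WT.

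Elongation had 3 positive and 6 negative of 9 tested (median -0.23), the smallest p values being those of Hacd3 (-0.23) and Hsd17b12 (-0.29), enzymes of the elongation cycle. Activation and glycerolipid assembly had 4 positive and 13 negative of 17 (median -0.09), the smallest p values being those of the acyltransferases Gpat4 (-0.31) and Mogat2 (-1.37). Regulators had 6 positive and 16 negative of 22 (median -0.04), with the smallest p values at Srebf2 (-0.44, SE 0.15, edgeR adjusted p = 0.186), whose protein drives sterol synthesis, and Nfya (-0.37), a subunit of the factor that binds CCAAT. The thyroid hormone receptors Thra (47.7 CPM in Bad3SA and 50.1 CPM in Bad_WT) and Thrb (7.93 and 6.03 CPM) had log2 fold changes of -0.07 and 0.39. Uptake and binding had 5 positive and 3 negative of 8 (median 0.20), with the smallest p values at Slc27a3 (0.34) and the transporter Cd36 (1.00). Oxidation had 7 positive and 5 negative of 12, between -0.46 and 0.24 (median 0.06), with the smallest p values at Acadl (0.24) and Hadhb (0.23). None of the genes in these 8 lists passed.

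Thrsp is also abundant in fat and in secretory mammary epithelium, so markers of both are set beside it. Of 15 adipocyte markers, 13 had positive log2 fold changes and none passed (median 0.62), and Adipoq averaged 5.74 CPM in Bad3SA and 1.42 CPM in Bad_WT. Cfd, Fabp4, Plin1 and Retn likewise had fold differences of 4.09, 3.36, 3.58 and 3.82 (edgeR adjusted p = 0.385, 0.313, 0.405 and 0.378). Pparg and Pnpla2 stood at 1.22-fold and 1.07-fold, and Car3 and Acvr1c went the other way, at 0.941-fold and 0.774-fold. Adipoq was at 20.5 CPM in Bad3SA 5, against 0.365 to 6.93 CPM in the rest of Bad3SA. The summed level of all 15 was 275.8 to 782 CPM in Bad3SA and 207 to 518 CPM in Bad_WT, of which Pnpla2 (169.8 and 158 CPM on average in Bad3SA and Bad_WT) and Cebpa (93.8 and 78.5 CPM) made up much. The mean log2 CPM of the 15 markers, which weighs them equally, ran from 0.99 to 4.15 in Bad3SA and from -0.61 to 3.15 in Bad_WT. The sum peaked in Bad3SA 5, where Thrsp was at 361 CPM, and Bad3SA 1, with the lowest adipocyte sum of its genotype, also had 361 CPM of Thrsp. Within Bad_WT, tumours 4, 1 and 2 had the highest adipocyte sums, at 518, 352 and 314 CPM. They also had the most Thrsp, at 129.9, 154 and 130 CPM. Tumours 3, 5 and 6 of Bad_WT, with sums of 239, 227 and 207 CPM, had 68.7, 70.6 and 81.2 CPM of Thrsp. In Bad3SA, tumours 2 and 3 had sums of 429 and 372 CPM and the least Thrsp, at 218 and 207 CPM. Whether fat content plays a part in the Thrsp levels was not tested. Without Bad3SA 5 the Thrsp log2 fold change was 1.58 (edgeR adjusted p = 0.0172).

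Of 17 secretory alveolar markers, 14 had positive log2 fold changes and none passed (median 0.54), but 7 (41.2%) had an unadjusted p under 0.05, beside 16.2% of all genes. Their mean log2 CPM ran from 5.94 through a median of 6.41 to 7.08 in Bad3SA, against 4.42 through 5.41 to 6.19 in Bad_WT. Wap, the whey acidic protein gene, ranged from 15.8 to 247 CPM in Bad3SA and 2.58 to 15.7 CPM in Bad_WT. Its ranges did not overlap (8.90-fold, edgeR adjusted p = 0.0679). Csn2, a beta casein gene, averaged 43.6 and 1.34 CPM in Bad3SA and Bad_WT (edgeR adjusted p = 0.173). Its ranges overlapped, at 0.751 to 190 CPM in Bad3SA and 0.0122 to 7.38 CPM in Bad_WT. The 3 negative markers were Lalba (log2 -0.85), Csn3 (-0.36) and Spp1 (-0.15). Summed levels were 12823 to 17743 CPM in Bad3SA and 7358 to 17888 CPM in Bad_WT, with Csn3 the most abundant at 5689.6 and 7312 CPM on average. Csn1s1, an alpha casein gene, was at 36.7 to 3348 CPM in Bad3SA and 18.3 to 94.4 CPM in Bad_WT (edgeR adjusted p = 0.0682). Luminal markers had 4 positive of 9 and summed levels of 5234 to 7491 CPM in Bad3SA and 5889 to 6938 CPM in Bad_WT. Of 4 tested brown adipocyte markers 3 were positive, with sums of 14.8 to 34.6 CPM in Bad3SA and 9.43 to 23.7 CPM in Bad_WT. Immune and stromal markers, 6 positive of 7, summed to 267 to 1516 CPM in Bad3SA and 271 to 1256 CPM in Bad_WT. Their part in the Thrsp difference was not tested.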

How the data were processed

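The authors deposited whole-number read counts per Ensembl gene for 12 tumours, and a DESeq2 comparison with, per the file headers, p-values and adjusted p-values beside log2 fold changes with standard errors, the Wald score, and the mean normalised count as a signal. fastp 0.23.1, STAR 2.7.9a and build GRCm38 are named in the submitters' processing notes, as is DESeq2. How reads were counted, and with which strand setting, is not stated in the labels or file headers. The direction of the deposited comparison was settled by its correlation with the fit made here (Spearman rho -0.997 over 18019 genes).

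The members and gene lists were chosen with earlier results of these data known. Counts were filtered with filterByExpr (18019 genes left), scaled by TMM and tested for genotype with the quasi-likelihood F test of edgeR 4.0.16 in R 4.3.3, with robust dispersion and Benjamini-Hochberg adjustment over all genes at a threshold of 0.05. The SE is the absolute log2 fold change over the square root of F. Log2 CPM for correlations used a prior count of 2. BLAST+ 2.17.0, DESeq2 1.42.0, limma 3.58.1 and matplotlib 3.10.9 were also used. The fits were tested on simulated counts with 200 changed genes. Positions come from GENCODE M21 on GRCm38, in which 346 identifiers have no entry, and promoters from RefSeq on GRCm38.p6. Total counts ran from 58096172 to 83296370 per tumour.

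Named genes are the members, Mid1ip1, wider list genes that passed, the 2 smallest p values in each list and the 5 genes most like Thrsp whose mean log2 CPM was 1 or more. Of the citrate supply list, 1 gene named by the rule is not reported here. Thra, Thrb, the cell type markers were named after their values were seen. Alternatives were limma voom (quality weights), DESeq2's Wald test and size factors, 2 other filters (none, or at least 1 CPM in 6 tumours), non-robust dispersion, age in the model, a block on the title number, each tumour left out, and, after the data were seen, Bad3SA 4, 5 and 6 left out.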

Additional observations from a re-analysis of the deposited data

Results flagged for a closer look

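Of 74 sets of 6 tumours examined, 4 held a tumour that stood far from the other 5 by Dixon's test, and chance alone flags about 1 in 20 such sets. Scd3 in Bad3SA was highest in tumour 1, at 12.4 CPM. Cd36, a fatty acid transporter gene, was highest in Bad_WT in tumour 4, at 13.5 CPM, against 4.89 CPM in the next tumour. The summed adipocyte markers in Bad3SA were highest in tumour 5, at 782 CPM. The summed secretory alveolar markers in Bad3SA were highest in tumour 2, at 17743 CPM.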

How the results depend on the processing

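The Thrsp log2 fold change stayed between 1.32 and 1.78 under all 21 alternatives and passed under 19 of them. No member passed with end-point age in the model (0) or without Bad3SA 4, 5 and 6 (0). Against 2 wider pathway genes called, DESeq2 called 4, the age model 1, the replicate block 1, the fit without Bad3SA 4, 5 and 6 called 1, and leaving out each tumour gave 1 to 2. Scd3 passed under all 21. Against 249 genes called in all, DESeq2 called 998, voom 579, the filter of 1 CPM in 6 tumours 163, the age model 73, the replicate block 105, the fit without Bad3SA 4, 5 and 6 called 151, and leaving out each tumour gave 147 to 315, the lower counts being those without Bad_WT 1, 3 or 5 or Bad3SA 3 or 4. Of the 7 correlated pairs, 0 passed without those 3 tumours, 5 to 7 with each tumour left out, and 5 by rank.

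Signs near 0 turned. Scd1 was at 0.0852 with voom, 0.27 with age, 0.57 without Bad3SA 4, 5 and 6, and -0.44 to 0.13 with each tumour left out. Scd2 was at 0.15 with voom, 0.15 with age, 0.26 without those 3, and -0.20 to 0.0308. Mlxipl was at -0.32 with voom, -0.16 with the replicate block, -0.89 without those 3, and -0.29 to 0.21. Mid1ip1 was at 0.10 without those 3, and -0.19 to 0.0247. Without those 3, Fasn was at -0.11 and Cs at 0.00679, and r with Thrsp was 0.0361 for Acaca, 0.28 for Scd1 and -0.62 for Mlxipl. With each tumour left out, r with Thrsp was -0.11 to 0.29 for Mlxipl and -0.10 to 0.28 for Me1. Fads6 did not pass with the replicate block (adjusted p = 0.114) or without Bad_WT 5 or Bad3SA 1, 3, 4 or 5 (adjusted p up to 0.0721), and Ttc25 did not pass under 11 alternatives (adjusted p up to 0.202), among them those without Bad_WT 2, 3 or 5 or Bad3SA 1, 4, 5 or 6. Idh1, Me3, Flad1 and H4c8 passed with DESeq2 (adjusted p 0.0398, 0.0482, 0.0155 and 0.0306), and Me3 with voom (0.0296), which called 3 wider pathway genes. The causes were not tested.

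Title numbers were not taken as pairs: same-numbered tumours had correlations of -0.27 to 0.28, and only number 6 correlated best with its own. Such correlations cannot exclude a pairing that leaves little trace in expression. With 6 tumours per genotype a missed call is no sign of equal levels. Mlxipl, with as few as 125 counts in a tumour, has the largest counting error of the members.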
